A study of Mus musculus with 12 samples.

Results

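The genes described here mark blood vessel endothelium, the cell layer that lines every vessel. Cldn5, Ocln, Mfsd2a, Abcb1a and Slco1c1 are junction and transport genes known from the closed capillaries of the brain. Pecam1, Emcn, Plvap, Vwf and Tek are known from endothelium of many organs, and Plvap and Emcn in particular from fenestrated and sinusoidal vessels. The 10 genes were taken by name, and all 10 were found among the 22317 gene symbols of the count table. RNA-seq was performed on 12 libraries from wild-type male BALB/c mice, 8 weeks old, after photothrombosis (PT), a focal vessel occlusion in which the dye Rose Bengal is injected and the tissue is lit with a laser. SB2 and SB4 are labelled as brain cortex, taken 2 days and 4 days after ischemic injury of the skull. BS2 and BS6 are labelled as interparietal bone, taken 2 days and 6 days after ischemic injury of the brain. Each group holds 3 libraries, and every animal of these 4 groups had an injury. Control animals and the directly injured tissues were not analysed here, and the tissue pieces include ischemic and peri-ischemic areas of all cell types. The labels do not tie libraries to animals, although the study's methods speak of biological replicates, so the p-values measure the spread between these libraries, which may be in part technical.

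Brain capillary endothelium forms the blood-brain barrier. Its cells are sealed by tight junctions, carry little material across in vesicles, and exchange nutrients, hormones and drugs with the brain through dedicated carriers and efflux pumps, a program that depends on Wnt signalling from the surrounding tissue. Marrow sinusoids of bone are wide, thin-walled and open, and blood cells pass through their walls into the circulation.

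The content of the SB2 and BS2 libraries went against their tissue labels, while that of SB4 and BS6 did not, and this bears on every comparison between days. A list of 8 neuron markers summed to 8210 to 8613 CPM (counts relative to the library total, scaled by TMM factors) in SB4 and 7897 to 8050 CPM in BS2, but to 33.8 to 64.2 CPM in SB2 and 41.0 to 122.3 CPM in BS6. A list of 7 measured bone markers summed to 36850 to 41970 CPM in SB2 and 19220 to 79440 CPM in BS6, and to 23.1 to 25.9 CPM in SB4 and 24.2 to 34.5 CPM in BS2. SB4 and BS2 were thus rich in brain transcripts and SB2 and BS6 in bone transcripts, whatever the label, and day and tissue content cannot be told apart in either comparison of days. Whether the labels of SB2 and BS2 were exchanged cannot be settled from these data, and the labels were used as given. Had they been exchanged, SB4 against BS2 and SB2 against BS6 would be the comparisons of days within a tissue, and the comparisons called days here would set one tissue against the other. Library totals were 14126082 to 18972654 counts, so that an undetected gene may still have reached 3 counts, or 0.163 to 0.218 CPM. Library 2 of BS6 stood apart from libraries 1 and 3 of its group, and within BS6 neutrophil and monocyte markers summed to 3318 CPM at the lowest and 26470 CPM, in library 2, at the highest. Fold changes printed here that move by over 1.5 times without it are given both ways. In bulk tissue, fewer endothelial cells and less RNA per endothelial cell cannot be told apart.

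Promoter sequences are shown for 4 genes that stand for the 3 patterns described next: Cldn5, with small differences between groups, Mfsd2a and Slco1c1, high in the brain-rich libraries, and Emcn, high in the bone-rich ones. They are RefSeq sequences of build GRCm38.p6, each from 250 bases before to 50 bases after the gene's RefSeq start, written 5′ to 3′ on the gene's strand. Capitals mark matches to AGGAAG, the core bound by ETS factors (reverse complement CTTCCT), or to CTTTGA, a core bound by the TCF/LEF factors of Wnt signalling (reverse complement TCAAAG), searched on both strands. The windows are chr16:18776597-18776896, plus strand for Cldn5, chr4:122961139-122961438, minus strand for Mfsd2a, chr6:141524104-141524403, plus strand for Slco1c1 and chr3:137340828-137341127, plus strand for Emcn.
Cldn5: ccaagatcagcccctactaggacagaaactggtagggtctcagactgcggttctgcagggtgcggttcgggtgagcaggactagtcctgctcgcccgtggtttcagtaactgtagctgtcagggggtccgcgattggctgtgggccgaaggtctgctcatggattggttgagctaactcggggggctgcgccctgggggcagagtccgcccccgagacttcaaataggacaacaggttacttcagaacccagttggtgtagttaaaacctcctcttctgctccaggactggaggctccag
Mfsd2a: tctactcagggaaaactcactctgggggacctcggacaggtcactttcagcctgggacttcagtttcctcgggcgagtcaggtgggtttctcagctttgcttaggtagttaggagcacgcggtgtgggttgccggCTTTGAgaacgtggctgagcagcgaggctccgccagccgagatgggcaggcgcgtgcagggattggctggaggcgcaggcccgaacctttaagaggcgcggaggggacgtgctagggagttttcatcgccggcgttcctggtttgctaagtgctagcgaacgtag
Slco1c1: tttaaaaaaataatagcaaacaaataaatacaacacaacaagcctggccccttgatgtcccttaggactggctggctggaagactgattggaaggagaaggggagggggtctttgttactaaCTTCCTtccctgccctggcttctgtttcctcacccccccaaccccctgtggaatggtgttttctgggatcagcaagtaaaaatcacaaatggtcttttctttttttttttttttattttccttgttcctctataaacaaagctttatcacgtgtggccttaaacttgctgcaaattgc
Emcn: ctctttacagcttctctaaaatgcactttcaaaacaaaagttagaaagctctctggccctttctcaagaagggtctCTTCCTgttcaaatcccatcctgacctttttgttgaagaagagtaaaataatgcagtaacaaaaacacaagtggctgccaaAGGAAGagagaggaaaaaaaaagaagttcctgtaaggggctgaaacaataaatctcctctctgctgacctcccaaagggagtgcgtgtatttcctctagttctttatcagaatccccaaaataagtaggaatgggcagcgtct
Emcn held 2 ETS matches, Slco1c1 held 1, Mfsd2a held 1 TCF/LEF match and Cldn5 held neither motif. Promoters were matched for 7 of the 10 genes, and of the other 3 matched genes Ocln and Tek held none of either motif. The RefSeq window of Abcb1a, which held 2 matches to each motif, lies at chr5:8566841-8567140, upstream of the GENCODE start of the gene given below, so it is the promoter of another start. Among all 32851 promoter windows of 300 bases, 35.4% held the ETS core and 16% the TCF/LEF core, so such matches are common and are given as a description. Promoters of Pecam1, Plvap and Vwf were not used here.

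Cldn5, the main claudin of the barrier's tight junctions (chr16:18776847-18778262, plus strand, in mm10 coordinates of GENCODE M21, as for all genes below), differed little between groups of different content. It measured 21.3, 18.5 and 15.8 CPM in SB2, 18.6, 27.5 and 25.2 in SB4, 14.8, 24.5 and 17.6 in BS2 and 23.2, 34.1 and 27.5 in BS6. Every neighbouring pair in the order of the groups, BS6, SB4, BS2 and SB2, overlapped, while the end groups, BS6 and SB2, did not. Ocln, which encodes the junction protein occludin (chr13:100496507-100552718, minus strand), differed with the content of the libraries. Its libraries gave 4.22, 3.26 and 2.38 CPM in SB2, 6.88, 9.08 and 9.47 in SB4, 5.43, 7.75 and 7.77 in BS2 and 1.76, 5.01 and 2.99 in BS6. The brain-rich libraries, SB4 and BS2, all lay above the bone-rich ones, and within each kind the groups overlapped.

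Mfsd2a encodes the lysophospholipid carrier that brings omega-3 fatty acids into the brain and keeps vesicle transport low (chr4:122946850-122961188, minus strand). Measured levels were 0.684, 0.533 and 0.488 CPM in SB2, 15.5, 11.9 and 18.3 in SB4, 12.3, 15.9 and 15.3 in BS2 and 0.261, 1.63 and 0.191 in BS6. SB4 and BS2 did not overlap with SB2 and BS6, and the BS6 libraries rested on only 4, 27 and 3 counts, the highest of them in library 2. Slco1c1, a thyroxine transporter of brain capillaries and astrocytes (chr6:141524368-141570177, plus strand), was split in the same way. Counts scaled to 2.91, 1.73 and 1.40 CPM in SB2, 64.9, 62.3 and 70.4 in SB4, 59.3, 63.8 and 64.4 in BS2 and 1.44, 4.29 and 1.59 in BS6. Again both brain-rich groups lay above both bone-rich groups, and library 2 was the highest of BS6. Abcb1a, the P-glycoprotein pump that returns drugs and toxins to the blood (chr5:8660077-8748575, plus strand), behaved like Cldn5. Across libraries it read 41.0, 28.6 and 29.1 CPM in SB2, 28.2, 39.6 and 33.9 in SB4, 28.4, 31.1 and 36.3 in BS2 and 31.0, 52.3 and 33.5 in BS6. All 4 groups overlapped with their neighbours in the order BS6, SB4, SB2 and BS2.

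**Figure D1:**
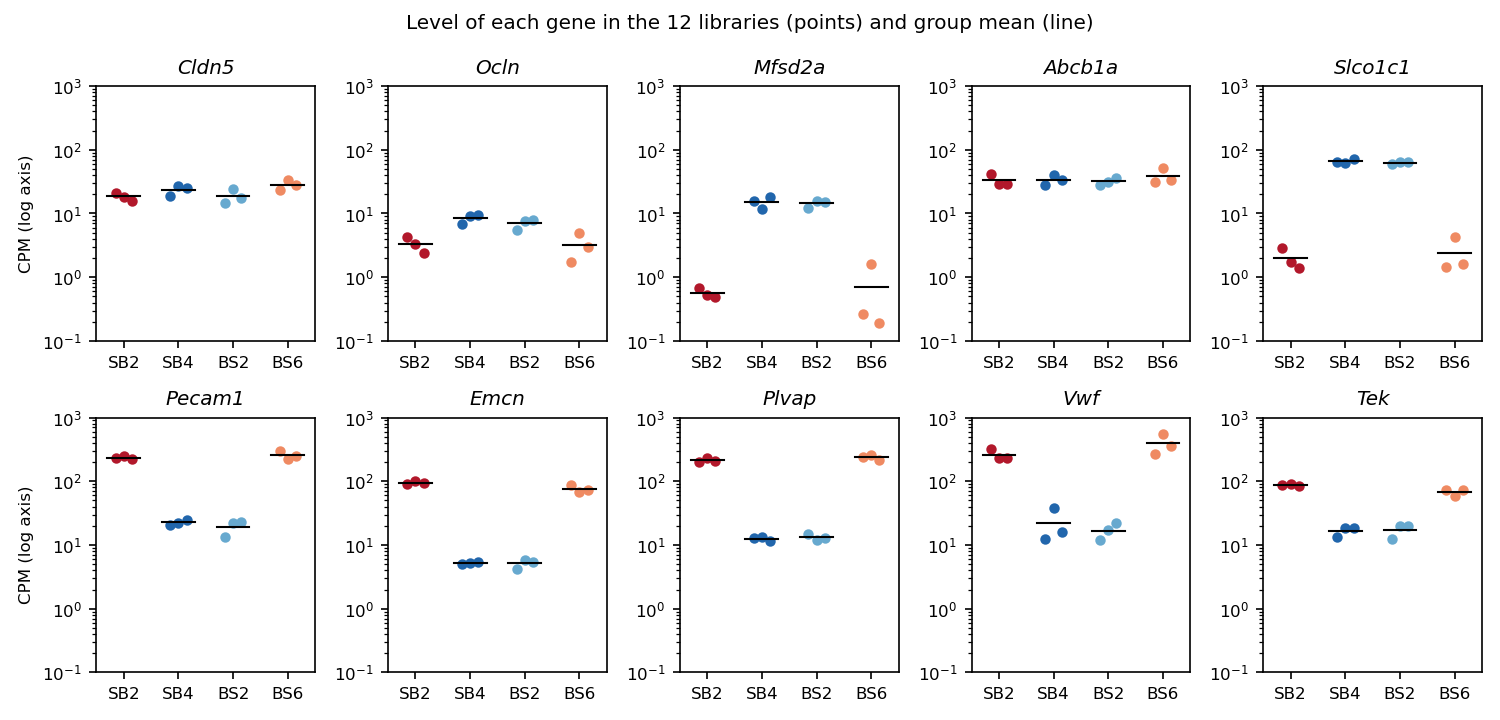
Level of each of the 10 genes in CPM on a log axis (vertical) in the 4 groups (horizontal); each point is a library and each line the mean of 3 libraries. Slco1c1 lies at 62.2 to 70.4 CPM in SB4 and at 1.40 to 2.91 CPM in SB2, Plvap shows the opposite order, and Cldn5 and Abcb1a overlap between groups next to each other in order of level.

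Pecam1, an adhesion molecule of endothelial junctions that platelets and leukocytes also carry (chr11:106654217-106750628, minus strand), was high in SB2 and BS6. It gave 228, 247 and 222 CPM in SB2, 20.9, 22.4 and 24.6 in SB4, 13.4, 22.0 and 23.0 in BS2 and 294, 225 and 245 in BS6. The bone-rich libraries all exceeded 222 CPM and the brain-rich libraries all stayed below 25 CPM. Emcn encodes endomucin, a sialomucin of capillary and venous endothelium that is used to stain bone sinusoids (chr3:137341067-137432185, plus strand). The values were 91.0, 99.6 and 93.0 CPM in SB2, 5.11, 5.27 and 5.35 in SB4, 4.25, 5.83 and 5.38 in BS2 and 86.5, 66.6 and 71.7 in BS6. SB2 lay above BS6 without overlap, and both lay far above SB4 and BS2, which overlapped.

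Plvap forms the diaphragms of fenestrae and caveolae and is known to be low in mature barrier endothelium (chr8:71497765-71511752, minus strand). Its levels were 203, 235 and 205 CPM in SB2, 12.8, 13.2 and 11.5 in SB4, 14.98, 11.8 and 13.1 in BS2 and 237, 259 and 218 in BS6. The bone-rich groups overlapped with each other and lay above the brain-rich ones. Vwf, the von Willebrand factor that binds platelets at injured vessel walls (chr6:125546774-125686679, plus strand), varied most between libraries of a group among the genes of this class. Libraries read 317, 233 and 232 CPM in SB2, 12.4, 38.0 and 16.1 in SB4, 11.9, 16.9 and 21.7 in BS2 and 272, 546 and 360.4 in BS6. Library 2 was the highest of SB4 and library 2 also the highest of BS6, yet bone-rich and brain-rich libraries did not overlap. Tek, the angiopoietin receptor TIE2 (chr4:94739289-94874976, plus strand), showed the smallest contrast of the class. In the 12 libraries it measured 86.5, 90.4 and 84.0 CPM in SB2, 13.3, 18.4 and 18.2 in SB4, 12.4, 19.9 and 19.5 in BS2 and 74.1, 59.4 and 73.0 in BS6. SB2 lay above BS6, and SB4 and BS2 overlapped below them.

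The question of the first comparison was what differed between day 4 and day 2 after skull injury in the libraries labelled brain cortex. Of the 10 genes, 8 were called (adjusted p under 0.05 and absolute log2 fold change over 1), against 56.4% of the 17293 genes tested. The barrier genes Slco1c1, Mfsd2a and Ocln were higher in SB4, and Emcn, Plvap, Vwf, Pecam1 and Tek were lower. That is 3 higher and 5 lower, where 27.8% and 28.6% of all genes were called in these directions. Slco1c1 went from 2.01 ± 0.789 to 65.9 ± 4.16 CPM (mean ± SD, n = 3), 32.3-fold higher, with a log2 fold change of 5.02 ± 0.19 (SE) and an adjusted p of 1.44e-09 in the quasi-likelihood test of edgeR (Benjamini-Hochberg). Mfsd2a was 26.5-fold higher, with means of 0.568 ± 0.102 CPM in SB2 and 15.3 ± 3.22 CPM in SB4 (edgeR, adjusted p = 9.42e-09). Ocln was 2.58-fold higher, at a log2 fold change of 1.37 ± 0.23 (edgeR, adjusted p = 0.000179).

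On the other side, Emcn was 17.9-fold lower in SB4, at 5.24 ± 0.123 against 94.5 ± 4.53 CPM, with a log2 fold change of -4.16 ± 0.09 (edgeR, adjusted p = 4.68e-12). Plvap was 17.1-fold lower, at 12.5 ± 0.902 against 214 ± 17.6 CPM (edgeR, adjusted p = 6.00e-12). With all libraries these were the steepest declines among the 10 genes, but without library 2 of SB4 that of Vwf exceeded that of Plvap. Pecam1 was 10.2-fold lower, with a log2 fold change of -3.35 ± 0.08, and Tek 5.18-fold lower, with -2.37 ± 0.11. Vwf was 11.6-fold lower, at -3.54 ± 0.50 (edgeR, adjusted p = 0.00208), and 17.8-fold lower without library 2 of SB4, whose 38.0 CPM compares with a mean of 14.3 CPM in the other libraries of that group. Cldn5 stayed under the fold threshold at a log2 fold change of 0.37 ± 0.15, although its adjusted p was 0.0474 (edgeR). Abcb1a gave 0.047 ± 0.17 (edgeR, adjusted p = 0.801), with a 95% interval of -0.34 to 0.43, and its sign was negative under 2 of the other scalings. The median log2 fold change was -1.16 over the 10 genes and -0.015 over all genes tested.

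The same question was asked between day 6 and day 2 after brain injury in the libraries labelled interparietal bone, and the directions were the other way round. Again 8 of 10 genes were called, where 55.5% of the 17311 genes tested were. Vwf, Plvap, Emcn, Pecam1 and Tek were higher in BS6 and Slco1c1, Mfsd2a and Ocln lower, 5 and 3 genes, beside 29% and 26.5% of all genes in these directions. Vwf was 24.0-fold higher, at 392 ± 139.8 against 16.9 ± 4.90 CPM (edgeR, adjusted p = 6.61e-05), and its mean in BS6 was 315.9 CPM without library 2. Plvap was 18.4-fold higher, from 13.3 ± 1.61 to 238 ± 20.6 CPM, with a log2 fold change of 4.20 ± 0.15 (edgeR, adjusted p = 4.18e-06). Emcn was 14.9-fold, Pecam1 13.5-fold and Tek 4.10-fold higher, with log2 fold changes of 3.90 ± 0.18, 3.75 ± 0.245 and 2.03 ± 0.21.

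Slco1c1 was 24.7-fold lower in BS6, at 2.44 ± 1.60 against 62.5 ± 2.82 CPM (edgeR, adjusted p = 0.000129), and 40.0-fold lower without library 2 of BS6. Mfsd2a was 19.7-fold lower, with a log2 fold change of -4.30 ± 0.69 (edgeR, adjusted p = 0.00139), and 60.4-fold lower without that library. The mean of Mfsd2a in BS6 was 0.694 CPM with library 2 and 0.226 CPM without it. For Ocln the call was weak: its log2 fold change was -1.05 ± 0.39 (edgeR, adjusted p = 0.0464). It was lost under upper-quartile scaling (-0.99, adjusted p = 0.0503), under scaling by total counts (adjusted p = 0.0539) and without any single library except library 2 of BS6, with edgeR adjusted p-values of 0.0575 to 0.12, while without library 2 of BS6 it was -1.51. Cldn5 was not called, at 0.61 ± 0.23 (edgeR, adjusted p = 0.0501), nor was Abcb1a, at 0.33 ± 0.23 (edgeR, adjusted p = 0.235). The median over the 10 genes was 1.32, and over all genes tested 0.02.

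**Figure D2:**
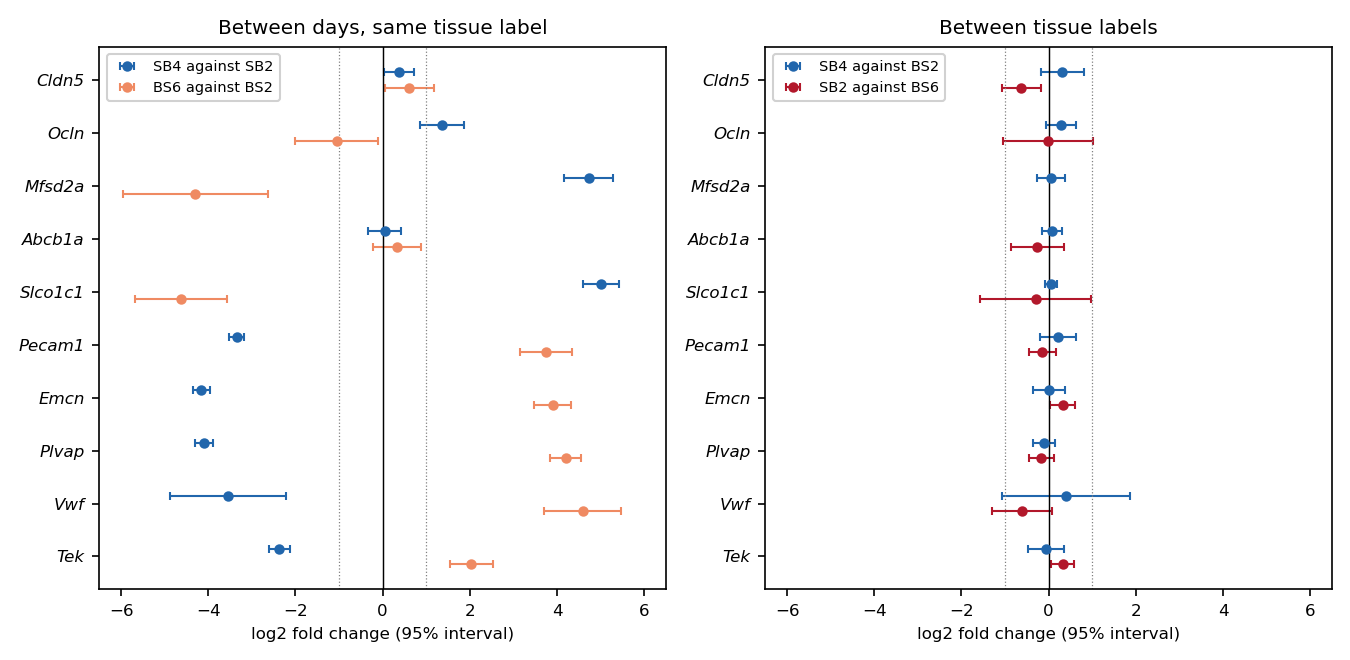
Log2 fold change of each gene (horizontal, with the 95% interval of edgeR's quasi-likelihood fit) between days (left) and between groups of different tissue labels (right); dotted lines mark an absolute log2 fold change of 1. In the left panel 8 genes have points on opposite sides of 0 and past the dotted lines in the 2 comparisons, and Cldn5 and Abcb1a lie near 0; in the right panel all points lie within the dotted lines, and Mfsd2a was not tested between SB2 and BS6.

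Groups with different labels but like content were then compared, and they share libraries with the comparisons above. Between SB4 and BS2, both brain-rich, 0 of the 10 genes were called by edgeR or by DESeq2 and 0 reached an unadjusted p under 0.05, beside 0.147% of 16278 genes called, 0.086% higher and 0.0614% lower in SB4. Slco1c1 had the narrowest interval, with a log2 fold change of 0.060 and 95% bounds of -0.081 and 0.20. Plvap gave -0.11 with bounds of -0.36 and 0.14, and Cldn5 0.32 with bounds of -0.18 and 0.82. Vwf was the least certain, at 0.40 with bounds of -1.06 and 1.86, and without library 2 of SB4 its value was -0.23. These intervals leave room for differences of up to the bounds given, so they do not show that the groups were equal.

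Between SB2 and BS6, both bone-rich, 0 of 9 genes tested were called by edgeR or by DESeq2, beside 1.86% of 16329 genes, 0.741% higher and 1.11% lower in SB2. Mfsd2a was not tested there because its counts were too low for the filter. In this comparison 3 genes, Cldn5, Tek and Emcn, reached an unadjusted p under 0.05. Cldn5 was at a log2 fold change of -0.63 ± 0.19, that is 1.545-fold lower in SB2 (edgeR, adjusted p = 0.0953). Tek, at 0.32 ± 0.11 (edgeR, adjusted p = 0.12), and Emcn, at 0.32 ± 0.12 (edgeR, adjusted p = 0.143), were higher in SB2. The intervals of Slco1c1 (-1.57 to 0.97) and Ocln (-1.04 to 1.02) were wide, and without library 2 of BS6 Slco1c1 turned from -0.30 to 0.41 and Ocln from -0.0070 to 0.46.

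Whether the changes over days differed between the 2 labelled tissues was tested directly, in a model of the 12 libraries together. The difference passed an adjusted p of 0.05 for 8 of the 10 genes, beside 84.9% of 18068 genes. It was 9.63 ± 0.52 for Slco1c1, 9.02 ± 0.75 for Mfsd2a and 2.41 ± 0.48 for Ocln on the log2 scale, and ran from -4.43 for Tek to -8.31 for Plvap among the other class. Without library 2 of BS6 it was 10.6 for Mfsd2a and 10.3 for Slco1c1, and without library 2 of SB4 it was -8.76 for Vwf, against -8.16 with it. Cldn5, at -0.26 with a 95% interval of -0.93 to 0.41 (edgeR, adjusted p = 0.432), and Abcb1a, at -0.29 with -0.98 to 0.39 (edgeR, adjusted p = 0.386), did not pass.

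General endothelial transcripts also differed between the groups, so each gene was also read against 8 general endothelial genes of the same library: Cdh5, which encodes VE-cadherin, Tie1, Robo4, Mmrn2, Clec14a, Egfl7, Esam and the VEGF receptor gene Kdr. All 8 were called lower in SB4 than in SB2 and higher in BS6 than in BS2, beside 28.6% and 29% of all genes. They summed to 646.5 to 712 CPM in SB2 and 680.6 to 884.1 CPM in BS6, against 92.4 to 104.5 CPM in SB4 and 67.01 to 93.7 CPM in BS2. The quantity used was log2(CPM + 1) of a gene minus the mean of the 8, so that a gene at 0 stands level with their mean. Other cells may add to any of these genes, and how much was not tested.

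On this scale Cldn5 and Abcb1a, nearly level in CPM, were higher in the brain-rich libraries. Cldn5 was at 1.06 ± 0.18 in SB4 and -2.03 ± 0.16 in SB2, a difference of 3.09 or 8.51-fold, and at 0.96 ± 0.22 in BS2 and -1.64 ± 0.42 in BS6, a difference of -2.60. Abcb1a differed by 2.80 between SB4 and SB2 and by -2.91 between BS6 and BS2. Slco1c1 differed by 7.25 and -7.46, Mfsd2a by 6.11 and -6.44, and Ocln by 3.91 and -4.12. All 5 barrier genes thus lay higher in every brain-rich library, relative to the 8, than in the bone-rich libraries of the same label. Most genes took the same position, since 89.8% of all genes were higher in every SB4 than in every SB2 library and 89.3% lower in every BS6 than in every BS2 library by this measure.

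Among the other class the relative differences were small. Plvap was 2.37-fold lower relative to the 8 in SB4 than in SB2 and 1.88-fold higher in BS6 than in BS2, and Emcn 2.27-fold lower and 1.38-fold higher. Pecam1 gave -0.55 and 0.51, and Vwf -0.89, with overlapping libraries, and 1.28. Tek alone of this class turned the other way, at 0.42 in SB4 against SB2 and -1.20 in BS6 against BS2, so relative to the other endothelial genes it was higher in the brain-rich libraries. In all, 9 of 10 genes did not overlap between SB4 and SB2, where 95.8% of all genes did not (89.8% higher and 6.04% lower in SB4), and 10 of 10 between BS6 and BS2, where 93.1% did not (3.75% higher and 89.3% lower in BS6). An exact permutation test of 3 against 3 libraries cannot go below 0.1 (two-sided), the value reached by every gene without overlap. With Pecam1 alone as the reference, Emcn turned to -0.047 in BS6 against BS2. Between groups of like content, 2 genes did not overlap in SB4 against BS2 (Emcn at -0.20 and Tek at -0.26, beside 20% of all genes, 0.289% higher and 19.7% lower in SB4) and 2 in SB2 against BS6 (Emcn and Tek, both at 0.52, beside 35.9%, 29.7% higher and 6.28% lower in SB2). Leaving out a library can only keep or raise such counts, and the share of all genes was not taken then. The first count was 4 without library 1 of SB4 or library 2 of BS2. The second was 6 without library 2 of BS6, 5 without library 1 of BS6 and 4 without library 1 of SB2.

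**Figure D3:**
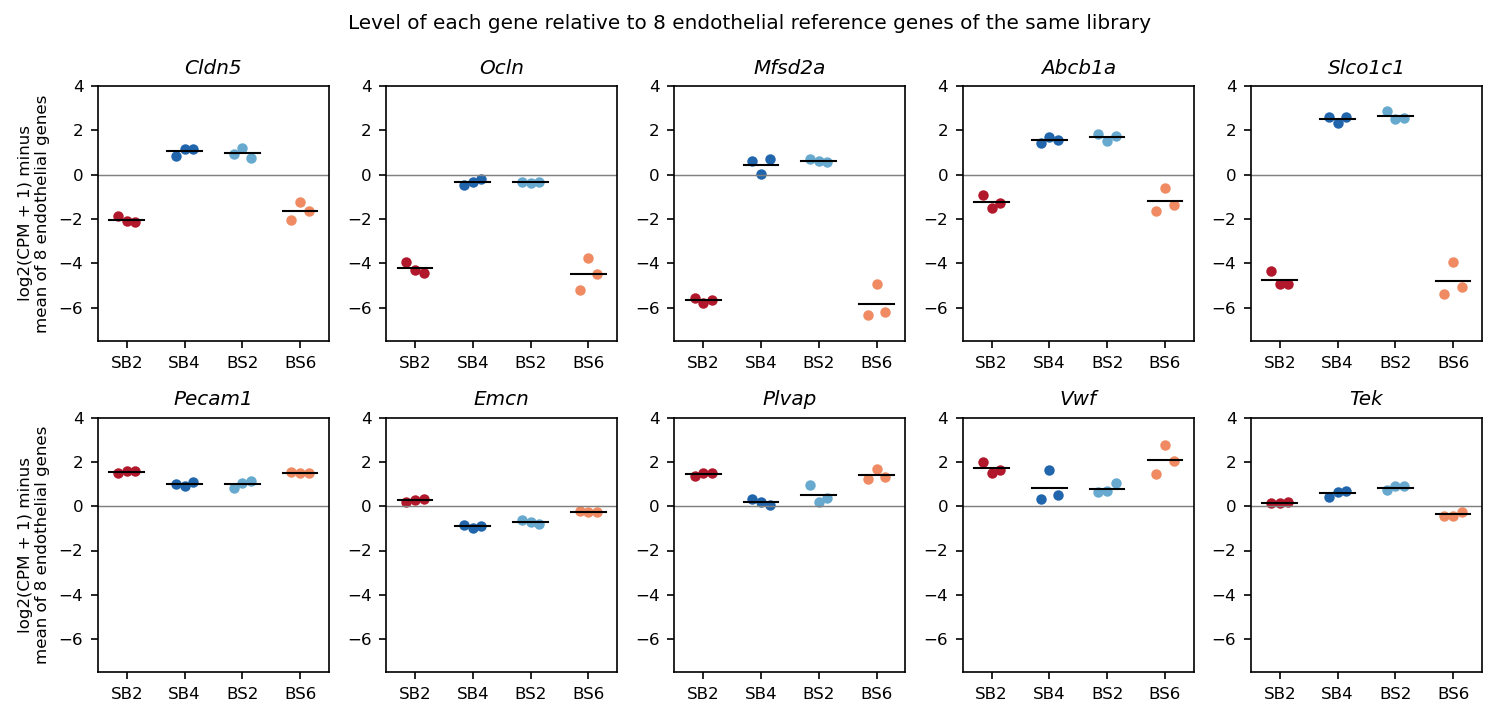
Level of each gene as log2(CPM + 1) minus the mean of 8 endothelial genes of the same library (vertical) in the 4 groups (horizontal); points are libraries, black lines means of 3, and the grey line marks the level of the 8 genes. Cldn5, Ocln, Mfsd2a, Abcb1a and Slco1c1 lie lower in the bone-rich groups, SB2 and BS6, by differences that run from -2.60 (Cldn5) to -7.46 (Slco1c1) in BS6 against BS2, where Tek is at -1.20 and Plvap at 0.91.

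Levels of different genes were compared per kilobase of exon. In SB2 and BS6 Plvap was the most abundant of the 10 genes, at 107.9 ± 8.87 and 119.8 ± 10.3 CPM per kb, followed by Pecam1 at 37.3 and 40.9 CPM per kb. In SB4 and BS2 Cldn5 led, at 16.8 ± 3.26 and 13.4 ± 3.54 CPM per kb, followed by Slco1c1 at 12.7 and 12.1 CPM per kb. Emcn was the least abundant of the 10 in SB4 and in BS2, at 0.969 and 0.952 CPM per kb, and Mfsd2a the least abundant in SB2 and BS6, at 0.253 and 0.309 CPM per kb. The ratio of Plvap to Cldn5, a pair chosen after the values were seen and therefore not tested, was 6.82 to 9.23 in the SB2 libraries and 5.42 to 7.31 in BS6. It was 0.324 to 0.490 in SB4 and 0.342 to 0.721 in BS2. The fenestral gene thus exceeded the claudin in each bone-rich library and lay below it in each brain-rich one.

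Transcripts of barrier genes in the bone-rich libraries were set against the neuron markers and the 7 astrocyte markers there. In SB2, Slco1c1 stood at 2.13 to 4.41% of its mean in SB4, and Mfsd2a at 3.20 to 4.48%. The 8 neuron markers summed there to 0.402 to 0.763% of their SB4 mean. Astrocyte markers were spread widely: Slc1a2, a glutamate transporter gene, stood at 0.281 to 0.948%, Slc1a3, another, at 6.04 to 6.73%, the water channel gene Aqp4 at 5.65 to 12.4%, Aldh1l1 at 7.78 to 9.85%, Gfap at 13.8 to 19%, S100b at 26.1 to 42.1% and the connexin gene Gja1 at 422 to 528%. In each SB2 library Slco1c1 and Mfsd2a thus kept a larger share than the neuron list and Slc1a2 and a smaller share than the other 6 astrocyte markers. Slco1a4 and Slc22a8, other organic anion carriers of brain capillaries, kept 10.5 to 26.5% and 21.8 to 53.7%, and Ocln 28.1 to 49.7%, so the low shares were those of Slco1c1 and Mfsd2a and not of every barrier gene.

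In BS6, set against BS2, library 2 held the largest share for Slco1c1 (6.86%), Mfsd2a (11.3%), the neuron list (1.53%) and 6 of the 7 astrocyte markers, from 1.62% for Slc1a2 to 89.8% for S100b, while for Gja1 it held the smallest (95.5%). Libraries 1 and 3 held 2.29% and 2.54% for Slco1c1, 1.80% and 1.32% for Mfsd2a, and 0.515% and 0.644% for the neuron list. Slco1a4 stood at 12.8 to 29.6%, Slc22a8 at 6.23 to 53.3% and Ocln at 25.2 to 71.8% in BS6, each highest in library 2. The order of Slco1c1 and Mfsd2a between the neuron list and Slc1a2 below and the other 6 astrocyte markers above was the same in each BS6 library. Barrier transcripts and neuronal transcripts of library 2 of BS6 were thus raised together. In SB2 the libraries did not keep the same order. There library 3 held the largest share of the neuron list (0.763%) and the smallest of Slco1c1 (2.13%) and Mfsd2a (3.2%). Library 1, nearly level with it for the neuron list (0.728%), held the largest of Slco1c1 (4.41%) and Mfsd2a (4.48%). Library 2 held the smallest of the neuron list (0.402%). The part of adhering brain tissue in the barrier genes of the bone-rich libraries was not tested. Cldn5 and Abcb1a, at 66.6 to 89.4% and 84.3 to 121% in SB2, and at 122 to 180% and 97.0 to 164% in BS6, were above the shares of Slco1c1 and Mfsd2a in each library.

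**Figure D4:**
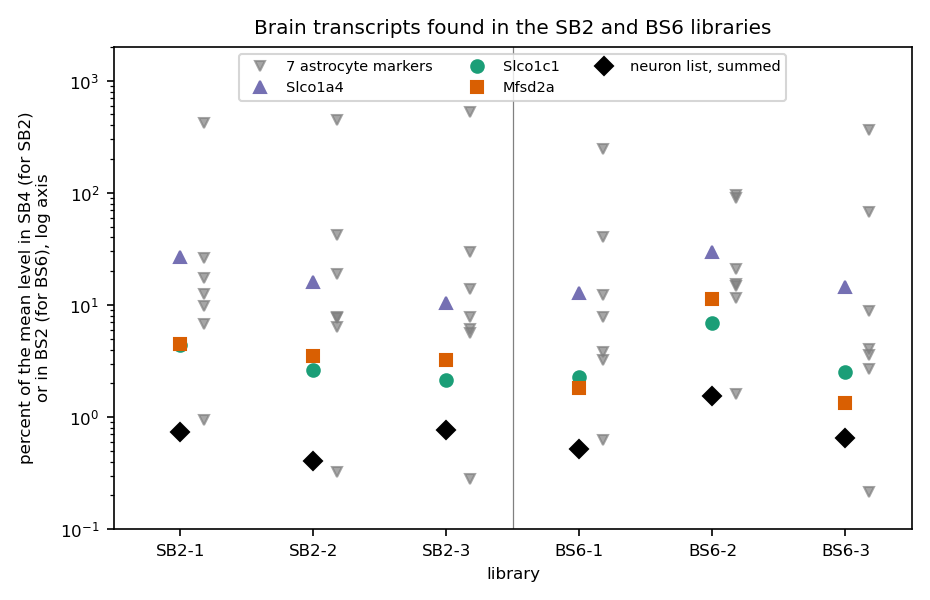
Level of brain transcripts in each SB2 and BS6 library (horizontal) as a percent of the mean level in SB4 for SB2 and in BS2 for BS6 (vertical, log axis); black diamonds are the sum of 8 neuron markers, grey triangles, set to the right, 7 astrocyte markers. Slco1c1 and Mfsd2a lie above the neuron list and the lowest astrocyte marker, Slc1a2, and below the other 6 astrocyte markers in each of the 6 libraries.

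Between the bone-rich and brain-rich groups, platelet and megakaryocyte transcripts moved with Vwf and Pecam1, which those cells also make. Within groups they did so only in part, as given below. The 11 measured markers summed to 360.1 to 389.6 CPM in SB2 and 390.5 to 570.2 CPM in BS6, and to 13.3 to 16.7 CPM in SB4 and 11.6 to 15.4 CPM in BS2. All 11 were called lower in SB4 than in SB2, beside 28.6% of all genes. With all libraries the largest change was that of Gp9 (-6.67, but -6.05 without library 2 and -7.46 without library 3 of SB4). Gp9 had only 0 to 2 counts in each SB4 library, so this rank is uncertain. All 11 were also called higher in BS6 than in BS2, beside 29% of all genes, and 10 of them without library 2 or 3 of BS2 or library 2 of BS6. The largest change there was that of Ppbp (7.47, and 8.86 without library 1 of BS2). None was at 0 in every library of a group. Library 2 of BS6, the highest for Vwf at 545.5 CPM, was also the highest for this list. Library 2 of SB4, the highest for Vwf in its group, was likewise the highest there, at 16.7 CPM beside 13.3 and 14.3 CPM in the others. In SB2 and BS2 the library highest for Vwf was instead the lowest for the list. These were library 1 of SB2 (317.4 and 360.2 CPM) and library 3 of BS2 (21.72 and 11.62 CPM). Pecam1 was highest with the list in library 2 of SB2, but lowest in library 2 of BS6, at 225.4 CPM. In SB4 and BS2 Pecam1 was highest in library 3, the lowest for the list. The part of platelets and megakaryocytes in the Vwf and Pecam1 results was not tested.

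The wider junction and transport lists were called in both directions. Of 11 tested partners of the tight junction, 2 were called higher and 4 lower in SB4 than in SB2, and 4 higher and 2 lower in BS6 than in BS2. The share called, 54.5% in both, was near that of all genes (56.4% and 55.5%). Cgn, which encodes the junction adaptor cingulin, was the highest of those called in SB4 against SB2 (log2 fold change 2.62) and the lowest in BS6 against BS2 (-2.13, and -2.77 without library 2 of BS6). F11r, the adhesion molecule JAM-A that leukocytes and platelets also carry, was the lowest in the first (-2.50), and Cldn1 the highest in the second (3.22). The scaffold gene Tjp1 gave 0.072 and -0.18 and was not called in either.

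Of 16 carriers and pumps, 4 were called higher and 4 lower in SB4 than in SB2, and 5 higher and 4 lower in BS6 than in BS2. These shares, 50% and 56.2%, were below or near those of all genes, and without any single library except library 2 of BS6 the number called lower in BS6 was 3. Lrp8, a reelin receptor that neurons also use, was at the upper end in the first (3.23) and at the lower end in the second (-2.54). Abcb1b, the close paralog of Abcb1a, took the opposite ends at -1.99 and 1.81. Its levels were 16.9 ± 1.29 CPM in SB2, 4.23 ± 0.40 in SB4, 4.25 ± 1.01 in BS2 and 14.6 ± 4.09 in BS6, so the paralogs differed in pattern. Because the counting program and its use of strand are not stated, reads shared between these paralogs are uncertain, as are reads of the 553 exon bases that Abcb1a shares with the opposite-strand gene Gm42686, whose group means were 0.0837 to 0.341 CPM. The glucose transporter gene Slc2a1 was not called in either comparison (0.68 and -0.26).

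Genes of the Wnt pathway and of transcription in barrier endothelium were also called in both directions. Of 17 tested, 2 were called higher and 7 lower in SB4 than in SB2, and 9 higher and 2 lower in BS6 than in BS2, or 52.9% and 64.7% in all, beside 56.4% and 55.5% of all genes. Ndp, the ligand norrin, was the highest of those called in SB4 against SB2, at 5.67 to 6.02 CPM in SB4 and 0.122 to 0.466 CPM in SB2. Foxc1 (-3.96) was the lowest in SB4 against SB2 and the coreceptor gene Lrp5 (4.95) the highest in BS6 against BS2. Foxc1 and Lrp5 also act in bone-forming and connective tissue cells. Axin2, a target of the pathway, stayed under the fold threshold at 0.90 (edgeR, adjusted p = 6.23e-05) and -0.82 (edgeR, adjusted p = 0.00369), higher in the brain-rich libraries, and Lef1, another target, was not called either (0.76 and -0.14).

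The list of fenestrated, sinusoidal and venous vessel genes followed Plvap and Emcn. Of 16 tested, 14 were called lower and 1 higher in SB4 than in SB2, and 14 higher and 0 lower in BS6 than in BS2. That is 93.8% and 87.5% of the list, beside 56.4% and 55.5% of all genes called in either direction. Medians were -3.54 and 3.66, beside -0.015 and 0.02 over all genes. The 8 general endothelial genes went the same way, all called in both comparisons, with medians of -2.86 and 3.34. The shift was thus not particular to this list, and the part of other cells in it was not tested. Esm1, a gene of endothelial tip cells, had 0 to 3 counts in each SB4 and BS2 library and 9.39 to 20.6 CPM in the bone-rich ones. Vcam1, the adhesion molecule, had the smallest called rise in BS6 (2.07). Ackr1, the chemokine receptor of venules, was the gene called higher in SB4 (1.15), a call that was lost without library 3 of SB2 (0.97), and without library 2 of BS6 it was called lower in BS6 (-1.10). Ehd3, a membrane trafficking gene, was called higher in SB4 without library 1 of SB2 or library 3 of SB4 (1.00 in both).

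Genes of angiopoietin and VEGF signalling, listed with some other vessel genes, were mostly called in the direction of Tek. The list held 15 genes, among them Apln, Dll4, and Kdr and Tie1 of the endothelial list. Of these 15, 11 were called lower and 0 higher in SB4, and 11 higher and 0 lower in BS6. That is 73.3% in each, beside 56.4% and 55.5% of all genes. Among the called genes, Angptl4 had the largest changes (-5.90 and 6.54) and Ptprb, the phosphatase of TIE2, the smallest (-1.58 and 2.05). The TIE2 ligand genes Angpt1 (-2.87 and 2.71) and Angpt2 (-4.43 and 5.92) were both called. The 4 genes not called in either comparison were the ligand genes Vegfa (0.043 and -0.28), Vegfb (0.56 and -0.43) and Apln (0.46 and -1.29) and the receptor gene Flt1 (-0.68 and 0.84), of which the first 3 had the opposite sign to Tek. Without library 1 of BS6, Apln was called lower in BS6 (-2.19). Of 11 pericyte markers, cells that wrap capillaries, 8 were called lower and 1 higher in SB4, and 8 higher and 1 lower in BS6, or 81.8% in each beside the same shares of all genes. The exception was Atp13a5 (2.31 and -2.35, the latter -3.03 without library 2 of BS6), and the largest changes were those of Anpep (-5.00 and 4.31). Pericyte markers summed to 1173 to 1226 CPM in SB2, 285.6 to 343.8 CPM in SB4, 256.4 to 327.2 CPM in BS2 and 987 to 1685 CPM in BS6. The highest means among them in SB2 were those of Pdgfrb (342.7 CPM) and Rgs5 (331.2 CPM). Other cells may add to these markers, and how much was not tested.

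The genes with the most similar pattern were found by the root mean square (RMS) difference of mean-centred log2(CPM + 1) over the 12 libraries, among the 13035 genes that averaged 5 CPM or more. Pecam1 was closest to Adcy4, Cdh5 and Eng (RMS 0.12 to 0.144), and Emcn to Igfbp7, Tmem123 and Rhoc (0.107 to 0.148). Tek was closest to Akap12, Heg1 and Kctd10 (0.142 to 0.148), and Plvap to Syne3, Ltbr and Svil (0.167 to 0.187). Vwf had no close neighbour, its nearest being Def6, Csf2rb2 and Lcp2 (0.325 to 0.349), known from blood cells. Slco1c1 was closest to Camta1, Tnik and Gpc5 (0.159 to 0.182), Mfsd2a to Gm14204, Camkk1 and Hspa4l (0.195 to 0.21), and Ocln to Kitl, Hdac4 and Gm7336 (0.195 to 0.203). For Abcb1a they were Crim1, Sgpp1 and Zbed4 (0.141 to 0.151), and for Cldn5 Sh2b1, Rnf114 and Slc12a9 (0.188 to 0.203). With groups this far apart in content, such likeness largely restates in which libraries a gene was high.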

How the data were processed

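RNA of brain and skull tissue was sequenced as poly(A)-selected paired-end libraries. Per the labels and the study's methods, the authors cleaned the reads, mapped them to mm10 with HISAT2 2.1.0 (submitters' processing notes) and deposited raw counts per gene symbol, with no normalization. The counting program, annotation and strand setting, and whether the counts precede the study's batch correction, are not given in the sources used here. Column names matched the labels of all 12 libraries, and no library duplicated another.

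Pairs of groups (3 against 3) were compared in R 4.3.3 with edgeR 4.0.16: filterByExpr with a minimum count of 10, TMM factors, the robust quasi-likelihood test and Benjamini-Hochberg adjustment over all genes tested. Calls required both an adjusted p below 0.05 and an absolute log2 fold change above 1. Standard errors were obtained by dividing the log2 fold change by the square root of F. The difference of both changes over days was a contrast over 12 libraries. CPM use TMM factors over 12 libraries, and limits from 3 counts cover counting error only. Levels relative to 8 endothelial genes used log2(CPM + 1). The code was tested on simulated data.

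Alternatives were DESeq2 1.42.0, RLE, upper-quartile and total-count scaling, no filter or at least 10 counts in every library, 1 fit over all libraries, the replicate number as a block, each library left out, a pseudocount of 0.5, the median of the 8 genes, and Pecam1 as the reference. The genes and lists were chosen with earlier results of these data known. Named besides the 10 genes are the 3 nearest genes of each, the called genes of each list with the largest and the smallest log2 fold change, genes that overlap a member or are its paralog, and some listed genes chosen after their values were seen. 1 listed gene that this rule names is not reported here.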

Additional observations from a re-analysis of the deposited data

Results flagged for a closer look

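For 8 of the 10 genes the change over days differed between the libraries labelled brain cortex (SB4 against SB2) and those labelled interparietal bone (BS6 against BS2) in a test of the difference itself (edgeR's quasi-likelihood test over 12 libraries, Benjamini-Hochberg adjusted p under 0.05). The difference, the first change minus the second on the log2 scale, was 2.41 for Ocln (adjusted p = 0.00061), 9.02 for Mfsd2a (adjusted p = 4.31e-07) and 9.63 for Slco1c1 (adjusted p = 1.00e-08), all higher in SB4 and lower in BS6. It was -7.12 for Pecam1 (adjusted p = 3.23e-10), -8.08 for Emcn (adjusted p = 1.22e-11), -8.31 for Plvap (adjusted p = 7.03e-12), -8.16 for Vwf (adjusted p = 2.20e-07) and -4.43 for Tek (adjusted p = 1.12e-08), all lower in SB4 and higher in BS6. Without library 2 of BS6 the difference was 10.6 for Mfsd2a and 10.3 for Slco1c1, and without library 2 of SB4 it was -8.76 for Vwf. Each of the 8 was past the threshold in DESeq2 as well, and 84.9% of all genes passed the same test. The later day was the brain-rich one under the first label and the bone-rich one under the second, and the days, the labels and the content cannot be told apart in these 8 results.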

How the results depend on the processing

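The number of genes called was 8 in SB4 against SB2, where it was 7 with at least 10 counts in every library, which leaves Mfsd2a untested. It was 8 in BS6 against BS2, where it was 7 under that filter, upper-quartile and total-count scaling. It was 0 in SB4 against BS2 and in SB2 against BS6 under every alternative. Leaving out each library gave 8 in SB4 against SB2, 7 to 8 in BS6 against BS2, and 8 genes in the difference of changes, which were 7 under the stricter filter. The replicate numbers did not pair the libraries (correlations of same-numbered deviations of -0.174 to 0.131), and with the replicate block the counts stayed at 8, 8, 0, 0 and 8. Upper-quartile and total-count scaling moved the median log2 fold change of all genes to -0.145 and -0.105 in SB4 against SB2, and upper-quartile scaling to -0.20 in the difference of changes. Signs turned for genes that were not called. In SB4 against SB2, Abcb1a was -0.082 under upper-quartile and -0.045 under total-count scaling, and -0.053 to 0.23 with a library left out. In SB4 against BS2, leaving out a library gave -0.25 to 0.064 for Tek, -0.040 to 0.18 for Abcb1a, -0.23 to 0.67 for Vwf, -0.097 to 0.23 for Mfsd2a and -0.11 to 0.11 for Emcn. In SB2 against BS6, Ocln was 0.0013 in DESeq2, 0.019 under upper-quartile, 0.045 under total-count scaling, 0.013 with no filter, 0.063 with the replicate block, and -0.31 to 0.46 with a library left out, as were Abcb1a (-0.45 to 0.023) and Slco1c1 (-0.66 to 0.41). Relative to Pecam1 alone, Emcn turned to -0.047 in BS6 against BS2, and the genes without overlap fell to 6 there and to 1 in SB4 against BS2. Shares of all genes were not taken with this reference or with a library left out, so these counts have no background to be read against. Leaving out a library can only keep or raise the number without overlap. With the 8 genes as reference, this gave 2 to 4 such genes in SB4 against BS2. In SB2 against BS6 it gave 2 to 6, the highest without library 2 of BS6. The cause was not tested. In BS6 against BS2 the call of Ocln was lost as given above. Mfsd2a in SB2 and BS6 rests on 3 to 27 counts per library.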

Other observations

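A few genes of the vessel lists ran against their own list, and they were chosen after their values were seen. Ackr1, the chemokine receptor of venules, measured 18.6 to 21.3 CPM in SB4 and 14.2 to 16.6 CPM in BS2, and 6.59 to 13.0 CPM in SB2 and 6.13 to 9.91 CPM in BS6. Ehd3, a membrane trafficking gene, measured 98.0 to 102.9 CPM in SB4 and 49.5 to 53.1 CPM in SB2, and was not called because its log2 fold change was 0.98. Atp13a5, a transporter gene known from brain pericytes, measured 13.8 to 18.2 CPM in SB4 and 2.20 to 5.07 CPM in SB2, while 8 of the 11 pericyte markers were called lower in SB4. In all 3 genes the brain-rich libraries of a label lay above the bone-rich ones, except that Ehd3 in library 2 of BS6 (92.3 CPM) exceeded the BS2 libraries (86.2 to 91.6 CPM).

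Slc22a8, an organic anion carrier of brain capillaries and choroid plexus, measured 13.9 to 19.9 CPM in SB4 and 15.2 to 26.7 CPM in BS2. In BS6 it was at 1.37, 11.7 and 2.48 CPM, with library 2 the highest, as for Slco1c1 and Mfsd2a. Of 3 choroid plexus markers tested in SB4 against SB2, 2 were called lower, beside 28.6% of all genes. They were led by Aqp1 (-9.71), a water channel gene that red cells and many endothelia also express. In BS6 against BS2, 3 of 4 were called higher, beside 29%. With a library left out, 2 to 3 were called lower and 0 to 1 higher in SB4, and 3 to 4 were called higher in BS6. Of 7 astrocyte markers, 6 were called higher and 1, Gja1, lower in SB4 against SB2, and 5 lower and 1, Gja1, higher in BS6 against BS2, beside 56.4% and 55.5% of all genes called. Gja1 was called in BS6 against BS2 with all libraries and without library 2 of BS6, and not without any other library. All 9 neutrophil and monocyte markers, all 7 bone markers and all 8 neuron markers were called in both comparisons, the first 2 lists lower and the last higher in SB4 than in SB2, and the reverse in BS6 against BS2, where the same shares of all genes were called.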
